A study of Mus musculus with 12 samples.

Results

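Cartilage of the embryonic skull was followed here through 10 genes of chondrocytes, the cells that make cartilage: the transcription factors Sox9, Sox5 and Sox6 and the matrix genes Col2a1, Col9a1, Col10a1, Acan, Matn1, Hapln1 and Snorc. They were listed by name, matched by symbol, and make up 10 of the 39179 gene identifiers in the files. All 10 had counts in each of the 12 libraries, and all 10 passed the filter on low counts, which left 17967 genes.

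RNA was sequenced from calvariae, the roof of the skull, of C57BL/6 mouse embryos at embryonic day 17.5. Embryos were wild type (WT) or Runx2+/-, which carry 1 altered copy of the gene for the bone transcription factor RUNX2; the sources used here do not describe the allele. Their mothers, mated at 8 weeks of age, received vehicle or MS-275, also called entinostat, which blocks histone deacetylases of class I, at 10 mg/kg into the abdominal cavity on days 14.5 and 16.5 of pregnancy. Each of the 4 groups (WT vehicle, Runx2+/- vehicle, WT MS-275 and Runx2+/- MS-275) has 3 libraries. The labels do not say whether these come from separate embryos or litters, so p-values measure the spread between these libraries, which may be technical.

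SOX9 is the master regulator of the chondrocyte lineage, and SOX5 and SOX6 work with it as partners on cartilage enhancers. Cartilage matrix is a mesh of type II collagen (from Col2a1) coated with type IX collagen (Col9a1, Col9a2 and Col9a3), filled with the proteoglycan aggrecan (Acan), which link protein (Hapln1) ties to hyaluronan. Most of the skull roof forms bone directly from membrane, without a cartilage model, while the skull base, nasal capsule, ear capsule and parts of the lateral and rear skull pass through cartilage. Outside cartilage, Sox9 and Col2a1 are also active in the inner ear and Sox5 in neurons of the cerebral cortex.

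Total counts in genes were 13307456 to 19399760 per library. Libraries did not all sit with their group: on the first principal component (72.5% of the variance) Runx2+/- MS-275 replicate 3 scored −106, among the vehicle libraries, while the other MS-275 libraries scored 83.9 or more. Replicate 3 of WT vehicle (5.51) and of Runx2+/- vehicle (−14.5) lay between. In Runx2+/- MS-275 replicate 3 22.2% of uniquely aligned reads fell in no gene, against 5.21% to 8.65% in the other MS-275 libraries. Epidermal markers varied in step: the 12 genes summed to 1532 to 4651 CPM in vehicle libraries, 69.3 to 131 CPM in 5 MS-275 libraries and 2180 CPM in Runx2+/- MS-275 replicate 3. Markers of other tissues did not all follow. In Runx2+/- MS-275 replicates 1 and 2, 12 skeletal muscle genes summed to 6660 and 6625 CPM. In WT vehicle replicate 3, 12 neuronal genes summed to 206 CPM, where the epidermal sum was 3524 CPM. CPM are counts scaled to a common library size after TMM adjustment for differences in RNA makeup, and sums add the CPM of the genes of a list. Transcripts of the osteoblast list were present in every library, with Col1a1 at 1105 to 25008 CPM. The 12 genes of that list summed to 3608 CPM in Runx2+/- MS-275 replicate 3 and to as much as 82355 CPM in WT MS-275. The part of bone in these values was not tested. Runx2 itself spanned 42.4 to 46.1 CPM with vehicle and 88.2 to 131 CPM with the drug in WT, and 32.8 to 65.3 and 34.1 to 93.5 CPM in Runx2+/-. A gene count cannot check the genotype label, since it does not tell the alleles apart.

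Cartilage transcripts were present in every group without the drug. Genes can be compared per kilobase of exon. On that scale Col2a1 led in WT vehicle with 30.6 ± 19.4 CPM per kb (mean ± SD, n = 3). Col9a1 followed with 20.1 ± 12.1 CPM per kb. The ranges of these 2 overlapped between libraries, but within each of the 3 libraries Col2a1 stood above Col9a1. The same held within each library of Runx2+/- vehicle. Col9a1 counts per Col2a1 count were 0.336 to 0.41 in WT vehicle and 0.336 to 0.464 in Runx2+/- vehicle. Matn1 (7.07 ± 3.52), Col10a1 (6.81 ± 6.44) and Hapln1 (6.76 ± 1.34 CPM per kb) formed a middle group within each other's spread. Acan had 4.91 ± 0.860 and Sox9 4.70 ± 0.614 CPM per kb, above Sox6 (2.57 ± 0.575) and Sox5 (2.45 ± 1.54 CPM per kb). The ranges of Acan and Sox9 overlapped between libraries, with Acan above Sox9 by a narrow margin within each. Snorc had the lowest mean, 1.60 ± 0.323 CPM per kb, within the spread of Sox5. In Runx2+/- vehicle the same 2 collagens led, Col2a1 at 35.1 ± 20.1 and Col9a1 at 27.2 ± 18.7 CPM per kb, and Snorc again had the lowest mean at 1.52 ± 0.584 CPM per kb.

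Under MS-275 the order of the means was different. In WT MS-275 Col9a1 (43.8 ± 11.7), Hapln1 (42.8 ± 3.00) and Matn1 (37.5 ± 16.2 CPM per kb) had means above that of Col2a1 (31.3 ± 24.7 CPM per kb), though these 4 lay within their spread. Snorc stood at 19.5 ± 3.90 CPM per kb, and the libraries of Acan (13.7 ± 6.57) and Col10a1 (11.8 ± 9.29 CPM per kb) overlapped its own. Below Snorc in every library were Sox9 (3.90 ± 0.528), Sox6 (2.53 ± 0.302) and Sox5 (0.890 ± 0.159 CPM per kb). In Runx2+/- MS-275 the spreads were nearly as large as the means, with Col9a1 at 71.3 ± 63.5, Matn1 at 67.2 ± 57.0 and Hapln1 at 54.9 ± 45.2 CPM per kb.

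**Figure D1:**
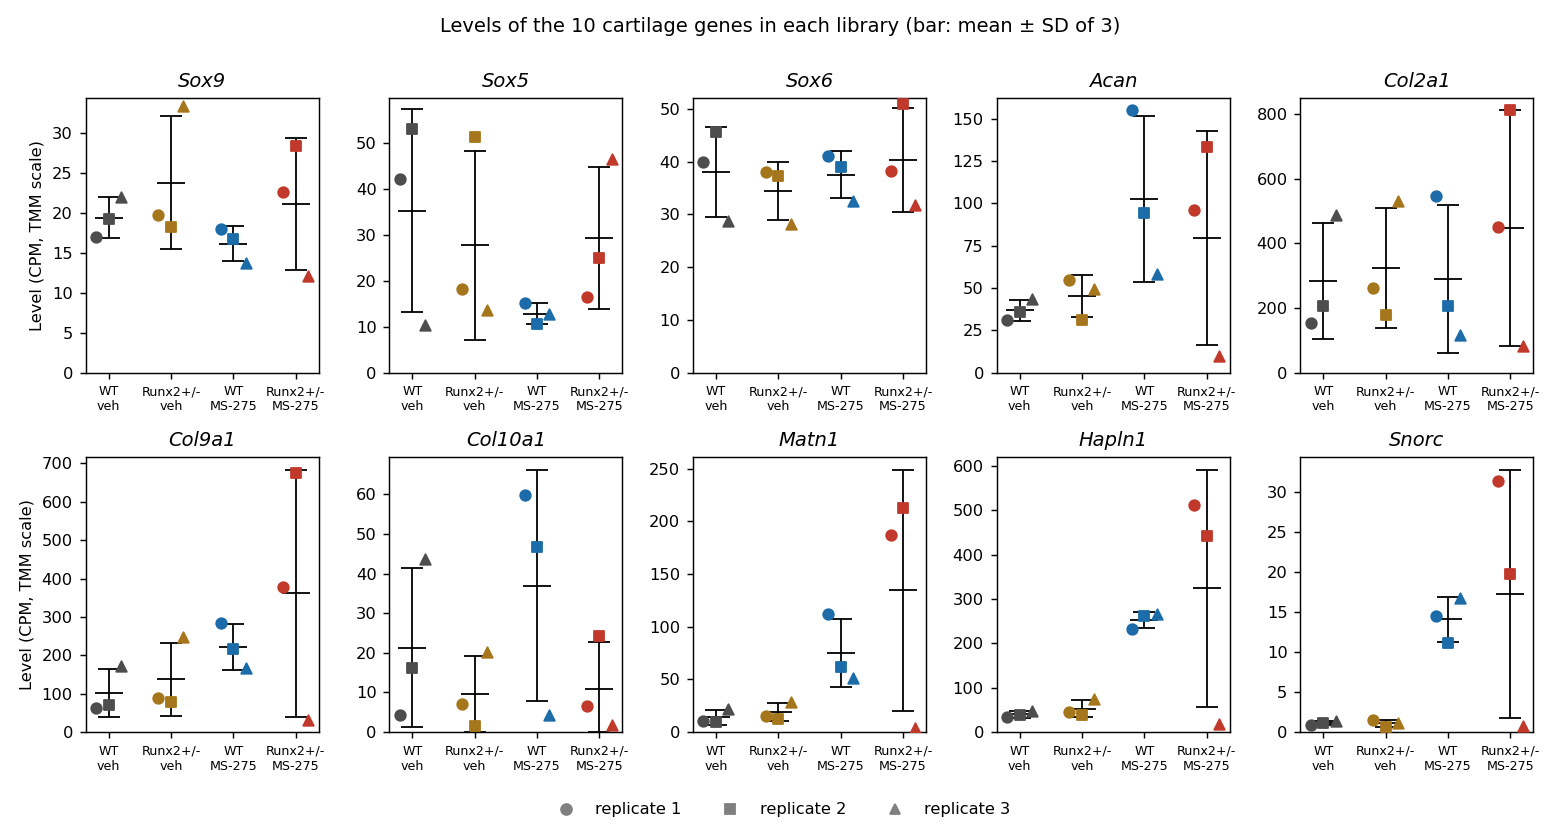
Level of each of the 10 genes in each library, in CPM after TMM scaling (vertical axis, linear, starting at 0) by group; points are libraries, shaped by replicate number, and bars give the mean ± SD of 3. Acan, Matn1, Hapln1 and Snorc are higher in all WT MS-275 libraries than in any vehicle library, Acan by a narrow margin. Runx2+/- MS-275 replicate 3 lies at or below the vehicle libraries for the matrix genes.

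The transcription factors came first in the comparison of drug with vehicle, which asks what MS-275 changed in cartilage genes. Sox9 (ENSMUSG00000000567, chromosome 11, 112782224 to 112787760, plus strand; all gene positions from GENCODE M21, GRCm38) was read in WT at 17.0, 19.2 and 22.1 CPM with vehicle and 18.0, 16.7 and 13.7 CPM with MS-275. Runx2+/- libraries held 19.8, 18.2 and 33.4 CPM with vehicle and 22.7, 28.4 and 12.1 CPM with MS-275. The groups overlapped in both genotypes. Its log2 fold change with the drug was −0.27 in WT (SE 0.32, 95% interval −0.98 to 0.45, edgeR adjusted p = 0.513) and −0.18 in Runx2+/- (SE 0.32, interval −0.89 to 0.53, edgeR adjusted p = 0.767), intervals that hold both no change and a change of moderate size. When libraries were scaled by their size alone, Sox9 in WT passed as lower (−1.07, edgeR adjusted p = 0.0386), on a scale where the median of all genes was −0.95 in place of −0.13.

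Sox6 (ENSMUSG00000051910, chromosome 7, 115470872 to 116038796, minus strand) was the steadiest of the 10. WT libraries held 39.8, 45.6 and 28.8 CPM with vehicle and 41.1, 39.1 and 32.5 CPM with MS-275. The Runx2+/- libraries held 38.0, 37.3 and 28.2 CPM with vehicle and 38.2, 51.0 and 31.8 CPM with MS-275. All 4 groups overlapped, and the log2 fold change was −0.02 in WT (interval −0.53 to 0.49) and 0.22 in Runx2+/- (interval −0.29 to 0.74). Replicate 3 was the lowest library of each group.

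Sox5 (ENSMUSG00000041540, chromosome 6, 143828425 to 144781977, minus strand) split the libraries differently from its partner. In WT the libraries held 42.2, 53.0 and 10.4 CPM with vehicle and 15.0, 10.5 and 12.9 CPM with MS-275. In Runx2+/- they held 18.1, 51.3 and 13.6 CPM with vehicle and 16.5, 25.0 and 46.5 CPM with MS-275. High values thus came from 3 vehicle libraries and from Runx2+/- MS-275 replicate 3. With the drug Sox5 had a log2 fold change of −1.46 in WT (SE 0.64, edgeR adjusted p = 0.0990), which did not pass, and 0.09 in Runx2+/- (SE 0.63, edgeR adjusted p = 0.949). When libraries were scaled by their size alone the WT value was −2.31 and passed (edgeR adjusted p = 0.0446). Without WT vehicle replicate 3 the WT value was −1.89 (edgeR adjusted p = 0.0439), and without the 3 libraries that stand apart (replicate 3 of WT vehicle, Runx2+/- vehicle and Runx2+/- MS-275) it was −1.89 with an edgeR adjusted p of 0.00282.

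Neuronal transcripts moved with Sox5. The 12 neuronal markers had a summed level in WT of 1595, 1979 and 206 CPM with vehicle and 144, 98.2 and 429 CPM with MS-275. The Runx2+/- sums were 1061, 2139 and 399 CPM with vehicle and 308, 145 and 1318 CPM with MS-275. The 4 libraries with the highest sums are the 4 highest in Sox5. In WT 3 of the 12 (Nefm, Nefl and Satb1) fell with the drug and 0 rose, against 9.33% and 9.67% of all genes. None of the 12 was at 0 in all libraries of a group. The part of neuronal RNA in the Sox5 values was not tested. Counts of Sox5 per count of Sox6 within a library ran in WT from 0.362 to 1.16 with vehicle and 0.268 to 0.395 with MS-275, and in Runx2+/- from 0.477 to 1.37 and 0.433 to 1.46, so the partners did not keep 1 proportion.

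Type II collagen, the main fibre of cartilage, overlapped between treatments in both genotypes. Col2a1 (ENSMUSG00000022483, chromosome 15, 97975602 to 98004695, minus strand) stood in WT at 154, 207 and 488 CPM with vehicle and 548, 206 and 115 CPM with MS-275. In Runx2+/- it stood at 263, 177 and 533 CPM with vehicle and 452, 813 and 82.3 CPM with MS-275. Each group spanned a severalfold range, and all groups overlapped. The log2 fold change was 0.03 in WT (SE 0.81, interval −1.76 to 1.83, edgeR adjusted p = 0.975) and 0.47 in Runx2+/- (SE 0.81, interval −1.33 to 2.27, edgeR adjusted p = 0.759), intervals wide enough to hold a large change in either direction.

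In each of the 4 groups the library highest in Col2a1 was also the highest in inner ear transcripts. The sum of 8 inner ear markers, among them Oc90, the main protein of the ear's calcium crystals, was 111, 123 and 481 CPM with vehicle and 51.6, 26.7 and 30.7 CPM with MS-275 in WT. In Runx2+/- it was 172, 131 and 653 CPM with vehicle and 27.9, 794 and 98.4 CPM with MS-275. Of the 8 markers 2 (Otog and Tecta) fell in WT with the drug and 0 rose, against 9.33% and 9.67% of all genes. Tectb was at 0 in all 3 WT MS-275 libraries. Otor, a secreted protein of ear cartilage chosen after its values were seen, had 178 and 328 CPM in replicate 3 of the 2 vehicle groups and 354 CPM in Runx2+/- MS-275 replicate 2, against 10.4 to 33.9 CPM elsewhere. The part of ear tissue in the Col2a1 values was not tested.

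The other chains of the type IX coat followed Col2a1 closely. Among 14120 genes with a mean log2 CPM of at least 1, the 2 whose profile over the 12 libraries lay nearest to that of Col2a1 were Col9a2 and Col9a3, with a root mean square difference of 0.27 and 0.36 on the log2 scale after each gene was centred on its own mean. Next came Meltf (0.50), Fzd9 (0.52), Itih5 (0.53) and Moxd1 (0.53). Of the 10 cartilage genes the nearest to Col2a1 were Sox9 and Col9a1 (both 0.68) and Acan (0.75), and the farthest was Snorc (1.84). The profile of Sox9 lay nearest to those of Chst5 (0.17), Cyp1b1, Eps8 and Tgfb2 (each 0.18), Npr3 (0.19) and Clic5 (0.20), none of them among the 10. These distances describe the same 12 libraries and are given without a test.

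Col9a1, which encodes the remaining chain of type IX collagen, stood in a different proportion to its sister chains in most drug libraries. The gene (ENSMUSG00000026147, chromosome 1, 24177610 to 24252684, plus strand) has 2 known start sites, a long form of cartilage and a shorter form known from the eye, and counts per gene do not tell them apart. RefSeq (GRCm38.p6) holds the 250 bases before each start. They are shown because the 2 starts differ in the short motifs they carry: capitals mark matches to the SOX core ACAANG in the first, at chr1:24177360-24177609, and to the RUNX core TGNGGT in the second, at chr1:24194953-24195202, on either strand. Such matches are common, in 36.3% (SOX) and 40.1% (RUNX) of all windows, so the difference is only a description.
Col9a1 upstream start: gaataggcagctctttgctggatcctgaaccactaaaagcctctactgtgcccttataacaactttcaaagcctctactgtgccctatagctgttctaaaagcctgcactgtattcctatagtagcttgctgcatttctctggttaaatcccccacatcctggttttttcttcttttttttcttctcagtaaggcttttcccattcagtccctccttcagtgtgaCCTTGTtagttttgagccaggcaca
Col9a1 downstream start: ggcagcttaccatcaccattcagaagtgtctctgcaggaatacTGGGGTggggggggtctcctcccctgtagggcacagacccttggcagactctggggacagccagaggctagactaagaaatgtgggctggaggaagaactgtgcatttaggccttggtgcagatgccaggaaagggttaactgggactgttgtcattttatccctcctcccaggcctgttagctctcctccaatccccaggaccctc

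WT libraries held 63.3, 69.5 and 173 CPM of Col9a1 with vehicle and 284, 216 and 167 CPM with MS-275. Runx2+/- libraries held 88.4, 78.4 and 247 CPM with vehicle and 379, 674 and 30.6 CPM with MS-275. WT vehicle replicate 3 overlapped the WT MS-275 libraries by a narrow margin, and Runx2+/- MS-275 replicate 3 was the lowest of all 12. Its log2 fold change was 1.13 in WT (SE 0.85, edgeR adjusted p = 0.299) and 1.39 in Runx2+/- (SE 0.86, edgeR adjusted p = 0.370), neither past the threshold. Without the 3 libraries that stand apart it was 1.75 in WT (edgeR adjusted p = 0.00145) and 2.61 in Runx2+/- (edgeR adjusted p = 6.2e-04), and without Runx2+/- MS-275 replicate 3 alone it was 1.93 in Runx2+/- (edgeR adjusted p = 0.0310).

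Within a library the proportion of Col9a1 to its partners is free of the scaling between libraries. Col9a1 counts per Col9a2 count were in WT 1.12, 1.21 and 1.22 with vehicle and 2.23, 2.86 and 3.33 with MS-275, and in Runx2+/- 1.11, 1.43 and 1.63 with vehicle and 3.74, 3.17 and 1.04 with MS-275. All MS-275 libraries except Runx2+/- MS-275 replicate 3 lay above all vehicle libraries. Col9a3 gave the same split, with 1.03 to 1.71 Col9a1 counts per Col9a3 count in vehicle libraries, 2.00 to 2.92 in WT MS-275 and 2.44, 2.42 and 0.727 in Runx2+/- MS-275. By contrast Col9a2 counts per Col2a1 count overlapped throughout, at 0.278 to 0.368 in vehicle libraries and 0.224 to 0.434 with the drug. These ratios were chosen after the values were seen and are given without a test.

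Aggrecan and the proteins that bind its network came next. Acan (ENSMUSG00000030607, chromosome 7, 79053483 to 79115099, plus strand) gave 30.8, 35.8 and 43.5 CPM with vehicle and 155, 94.2 and 58.0 CPM with MS-275 in WT, groups that did not overlap. In Runx2+/- it gave 54.8, 31.3 and 49.4 CPM with vehicle and 95.8, 133 and 10.1 CPM with MS-275. Acan had a log2 fold change of 1.48 in WT (SE 0.69, edgeR adjusted p = 0.115) and of 0.82 in Runx2+/- (SE 0.69, edgeR adjusted p = 0.513). Without Runx2+/- MS-275 replicate 3 the values were 1.48 (edgeR adjusted p = 0.00977) and 1.34 (edgeR adjusted p = 0.0253). That library is in neither WT group. It enters the WT test through steps shared by all libraries: the estimate of spread, the filter, the scaling and the adjustment over all genes.

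Hapln1 encodes link protein, which clamps aggrecan to hyaluronan, and Matn1 encodes matrilin-1, an adaptor between collagen fibrils and proteoglycans. They are printed together because both were severalfold higher in 5 of the 6 MS-275 libraries than in their vehicle groups. Promoter windows from RefSeq (GRCm38.p6, 250 bases before the start, plus strand) lie at chr13:89540386-89540635 for Hapln1 and chr4:130944135-130944384 for Matn1. Capitals mark the SOX core ACAANG and the RUNX core TGNGGT on either strand.
Hapln1: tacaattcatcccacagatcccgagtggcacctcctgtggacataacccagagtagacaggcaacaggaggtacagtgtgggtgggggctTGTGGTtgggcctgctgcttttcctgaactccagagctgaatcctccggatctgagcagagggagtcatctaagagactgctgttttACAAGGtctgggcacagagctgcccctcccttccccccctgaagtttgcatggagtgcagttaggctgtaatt
Matn1: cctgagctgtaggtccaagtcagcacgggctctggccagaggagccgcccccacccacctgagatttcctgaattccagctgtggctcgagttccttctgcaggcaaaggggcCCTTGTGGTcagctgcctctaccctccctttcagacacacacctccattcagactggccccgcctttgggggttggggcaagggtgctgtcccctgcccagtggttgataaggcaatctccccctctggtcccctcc

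In Hapln1 the SOX match starts 73 bases and the RUNX match 160 bases before the RefSeq start. In Matn1 they start 137 and 134 bases before it and overlap, so the capitals form 1 run. Windows in the table covered 7 of the 10 genes, in 13 windows because Sox6 has several starts and Col9a1 has 2. A SOX match was found in 10 of the 13, 5 of them starts of Sox6, against 36.3% of all 32841 windows, and a RUNX match in 7 of the 13, against 40.1%. A TATA box (TATAAA) was found in 2 of the 13, against 12.4%, 1 of them 32 bases before the start of Col10a1. Windows of 1 gene share their locus and matches are only letters, so these shares are a description.

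Link protein had the tightest set of WT drug libraries for its level among the 10. Hapln1 (ENSMUSG00000021613, chromosome 13, 89539796 to 89611652, plus strand) gave 33.2, 37.8 and 48.6 CPM with vehicle and 233, 261 and 265 CPM with MS-275 in WT, a 6.34-fold difference with no overlap. Its log2 fold change was 2.66 (SE 0.83, interval 0.83 to 4.50, edgeR adjusted p = 0.0488), and it rose. In Runx2+/- it gave 44.9, 38.2 and 74.8 CPM with vehicle and 512, 441 and 18.6 CPM with MS-275. There replicates 1 and 2 stood far above vehicle and replicate 3 below it, and the log2 fold change of 2.62 (SE 0.83, interval 0.79 to 4.46) did not pass (edgeR adjusted p = 0.181). Without that replicate, singled out after the data were seen and the lowest of all libraries for Hapln1, the value was 3.18 (SE 0.28, edgeR adjusted p = 9.7e-04).

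Snorc, a small membrane proteoglycan of chondrocytes, showed the largest fold of the 10. The gene (ENSMUSG00000026258, chromosome 1, 87470271 to 87475482, plus strand) held only 15 to 32 counts in a vehicle library and 136 to 338 counts in 5 MS-275 libraries. In WT it gave 0.917, 1.15 and 1.38 CPM with vehicle and 14.5, 11.1 and 16.7 CPM with MS-275, without overlap. The WT log2 fold change was 3.61 (12.2-fold, SE 0.95, interval 1.52 to 5.70, edgeR adjusted p = 0.0434), and Snorc rose. In Runx2+/- it gave 1.48, 0.646 and 1.17 CPM with vehicle and 31.4, 19.7 and 0.740 CPM with MS-275. There the first 2 drug libraries stood far above vehicle and the third within it, with a log2 fold change of 3.96 (SE 0.96, interval 1.84 to 6.09, edgeR adjusted p = 0.181) that became 4.53 (SE 0.38, edgeR adjusted p = 9.7e-04) without replicate 3. Of all 10 genes, Hapln1 had the profile nearest to that of Snorc (root mean square difference 0.59 on the log2 scale), followed by Matn1 (0.79).

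Matrilin-1 had a difference of similar size to that of link protein, with wider scatter. Matn1 (ENSMUSG00000040533, chromosome 4, 130944385 to 130955475, plus strand) gave 10.6, 9.57 and 22.3 CPM with vehicle and 112, 61.4 and 51.8 CPM with MS-275 in WT, again without overlap. With vehicle the Runx2+/- libraries gave 14.9, 12.9 and 28.6 CPM, and with MS-275 they gave 187, 213 and 3.70 CPM, the last of these the lowest of all 12. Matn1 had a log2 fold change of 2.41 in WT (SE 1.00, edgeR adjusted p = 0.0857) and 2.84 in Runx2+/- (SE 1.01, edgeR adjusted p = 0.186). DESeq2 called it in both (adjusted p = 0.0268 and 0.0332), and edgeR without Runx2+/- MS-275 replicate 3 also did (2.41 with adjusted p = 0.00398, and 3.41 with adjusted p = 0.00261).

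Set against type II collagen in the same library, these 3 genes stood higher with the drug. The ratios were chosen after the values of the genes were seen and are given without a test. Matn1 counts per Col2a1 count were 0.0456 to 0.0726 in the 6 vehicle libraries, 0.204 to 0.449 in WT MS-275 and 0.414, 0.262 and 0.0449 in Runx2+/- MS-275. Hapln1 counts per Col2a1 count were 0.0996 to 0.215 with vehicle, 0.424, 1.27 and 2.30 in WT MS-275 and 1.13, 0.543 and 0.226 in Runx2+/- MS-275. Snorc counts per Col2a1 count were 0.00220 to 0.00594 with vehicle, 0.0264, 0.0541 and 0.145 in WT MS-275 and 0.0695, 0.0242 and 0.00899 in Runx2+/- MS-275. For each of the 3 genes the 5 MS-275 libraries other than Runx2+/- MS-275 replicate 3 lay above every vehicle library, and that replicate did so too, by less, for Hapln1 and Snorc. Acan per Col2a1 did not overlap between WT vehicle and WT MS-275 (0.0892 to 0.199 against 0.283 to 0.503), and overlapped between Runx2+/- vehicle (0.0927 to 0.208) and Runx2+/- MS-275 (0.122 to 0.212).

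**Figure D2:**
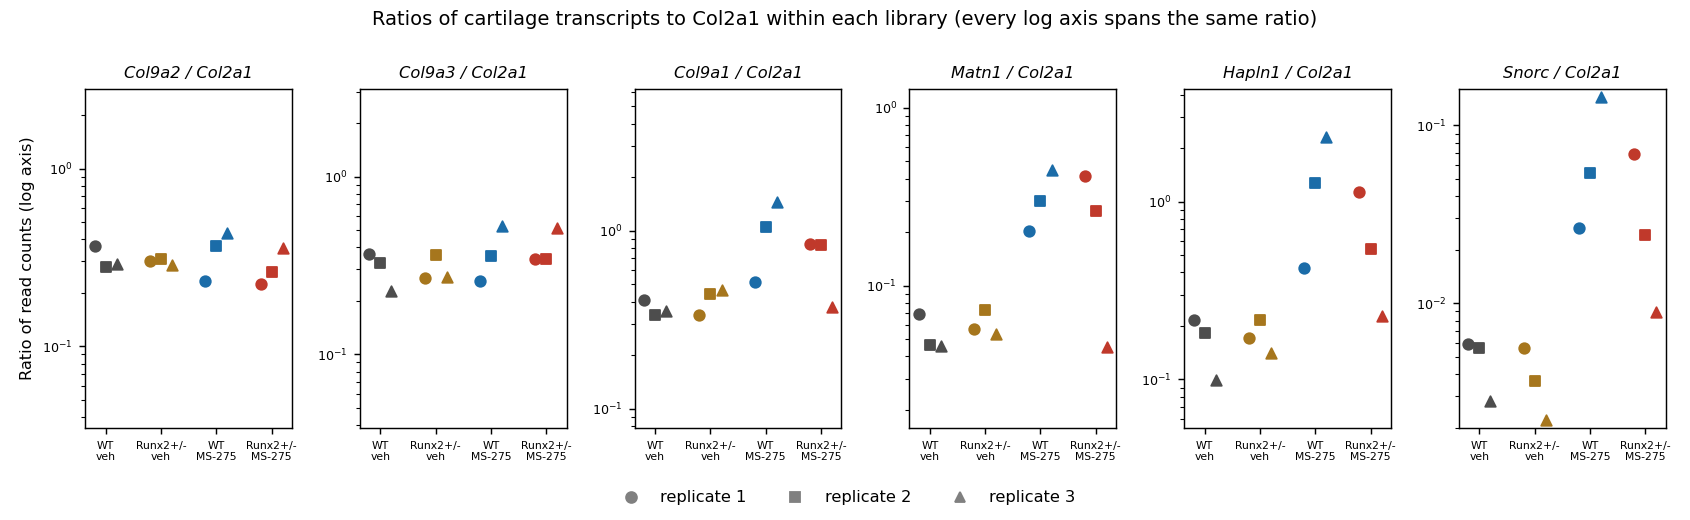
Counts of 6 cartilage genes divided by Col2a1 counts in the same library (vertical log axes, each spanning the same ratio), by group, with points shaped by replicate number. The Col9a2 and Col9a3 ratios overlap between vehicle and drug, while Col9a1 and Matn1 are higher in 5 of the 6 MS-275 libraries than in any vehicle library, and Hapln1 and Snorc in all 6. All were chosen after the values were seen and are shown without a test.

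Type X collagen, the mark of chondrocytes that have enlarged before bone replaces them, scattered most. Col10a1 (ENSMUSG00000039462, chromosome 10, 34389981 to 34397085, plus strand) gave 4.27, 16.2 and 43.6 CPM with vehicle and 59.8, 46.8 and 4.23 CPM with MS-275 in WT. In Runx2+/- it gave 6.98, 1.64 and 20.3 CPM with vehicle and 6.50, 24.3 and 1.70 CPM with MS-275. Each group held a library far above and one far below its mean, and all groups overlapped. Its log2 fold change with the drug was 0.80 in WT (interval −1.86 to 3.46, edgeR adjusted p = 0.603) and 0.17 in Runx2+/- (interval −2.51 to 2.84, edgeR adjusted p = 0.949). Nothing about the direction can be read from intervals of this width.

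In all, 2 of the 10 genes (Hapln1 and Snorc) rose with MS-275 in WT and 0 fell, where 19% of all genes tested were called, 9.67% as higher and 9.33% as lower. The groups did not overlap, with the drug higher, for 4 of the 10 (Acan, Matn1, Hapln1 and Snorc), against 27.3% of all genes. The median log2 fold change of the 10 was 0.96, against −0.13 for all genes. DESeq2 called 3 of the 10, all higher, against 18.6% of its genes. These edgeR calls rest on a narrow margin: leaving out 1 library at a time kept the call of Hapln1 in 2 of 12 cases (adjusted p from 5.3e-04 to 0.146) and that of Snorc in 4 of 12 (adjusted p from 5.0e-04 to 0.132), while the log2 fold changes stayed at 2.55 to 2.83 and 3.47 to 3.77. Neither passed with no filter on low counts (edgeR adjusted p = 0.0759 for Hapln1 and 0.0528 for Snorc). With libraries scaled by size alone Snorc passed (2.78, edgeR adjusted p = 0.0386) and Hapln1 did not (1.84, edgeR adjusted p = 0.0512). The count of the 10 called was 0 without WT vehicle replicate 1 or 2, Runx2+/- vehicle replicate 1 or 2, any 1 WT MS-275 library or Runx2+/- MS-275 replicate 2. It was 1 without Runx2+/- vehicle replicate 3 and 4 without Runx2+/- MS-275 replicate 3. It was 2 without Runx2+/- MS-275 replicate 1 (Hapln1 and Snorc) and 2 without WT vehicle replicate 3 (Snorc, higher, and Sox5, lower).

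In Runx2+/- the drug gave 0 calls among the 10 and among all 17967 genes by edgeR (3782, or 21%, at an unadjusted p under 0.05), and 3 of the 10 by DESeq2 (Matn1, Hapln1 and Snorc), against 6.06% of its genes called higher. All 10 genes overlapped between the groups, against 14.9% of all genes that did not. Without Runx2+/- MS-275 replicate 3 edgeR called 5 of the 10 higher (Acan, Col9a1, Matn1, Hapln1 and Snorc) and 0 lower, against 18.5% and 14.2% of all genes, and in WT 4 of the 10 higher and 0 lower against 22.2% and 24.4%. That library was singled out after the data were seen. It was the lowest of all libraries for Acan, Col9a1, Matn1 and Hapln1, so leaving it out raised their Runx2+/- differences. Leaving out any other single library gave 0 calls in Runx2+/-. Without the 3 libraries that stand apart the same 5 genes passed as higher in both genotypes, against 28.5% of all genes in WT and 23.9% in Runx2+/-, with Sox5 lower in WT, against 31.8%. Without the 3 libraries rich in ear transcripts (replicate 3 of both vehicle groups and Runx2+/- MS-275 replicate 2) Hapln1 and Snorc kept log2 fold changes of 2.83 and 3.76 in WT but missed the threshold (edgeR adjusted p = 0.0684 and 0.0557), and 1 of the 10, Sox5, passed as lower (edgeR adjusted p = 0.0455, against 16.2% of all genes).

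**Figure D3:**
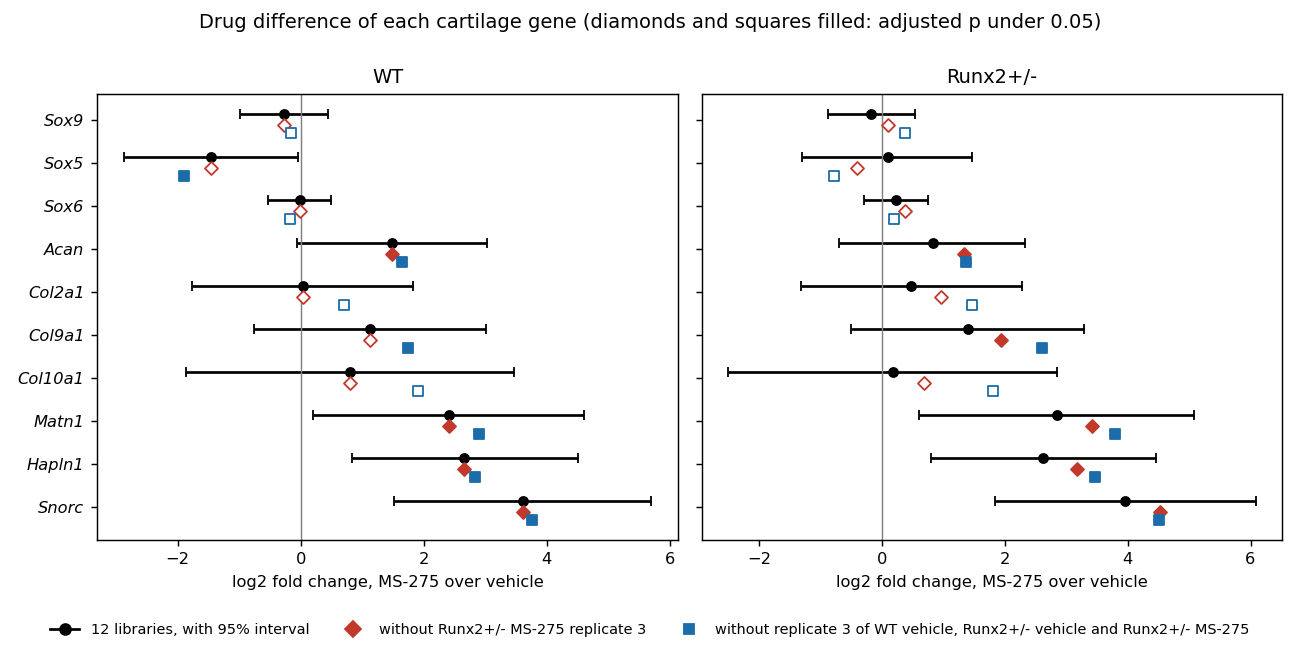
Log2 fold change of MS-275 over vehicle (horizontal axis) for each of the 10 genes, in WT (left) and Runx2+/- (right). Black points give the fit of 12 libraries with 95% intervals, red diamonds the fit without Runx2+/- MS-275 replicate 3 and blue squares that without replicate 3 of WT vehicle, Runx2+/- vehicle and Runx2+/- MS-275, both filled where the edgeR adjusted p is under 0.05. Snorc, Hapln1 and Matn1 lie farthest to the right in both genotypes, between 2.41 and 3.96 in the 12-library fit.

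Bone transcripts moved with these genes. The 12 osteoblast markers had a summed level in WT of 14067, 10712 and 15494 CPM with vehicle and 81774, 82355 and 66488 CPM with MS-275. The Runx2+/- sums were 22196, 8408 and 8778 CPM with vehicle and 71082, 40778 and 3608 CPM with MS-275, so that the drug libraries high in Snorc and Hapln1 are those high in bone markers. In WT 8 of the 12 rose and 0 fell, against 9.67% and 9.33% of all genes. None of the 12 was at 0 in all libraries of a group. Epidermal markers went the other way, with 11 of 12 lower in WT, against 9.33% of all genes. So did 4 of 9 tested hair follicle, 4 of 7 nasal airway, 4 of 12 skeletal muscle and 2 of 13 lens and retina markers. Each of these lists had 0 higher, where 9.33% of all genes were lower. Glial markers went both ways. In WT 3 of 12 were lower and 0 higher, but their sums were 448 to 554 CPM with vehicle and 593 to 775 CPM with MS-275. Without Runx2+/- MS-275 replicate 3, 6 were lower and 2 (Pdgfra and S100b) higher in WT, against 24.4% and 22.2% of all genes. The 8 meningeal markers had higher sums with the drug, as the bone markers did: in WT they summed to 263 to 402 CPM with vehicle and 738 to 2269 CPM with MS-275, without overlap, and all 8 had a positive log2 fold change (median 1.51). None of them passed in the fit of 12 libraries. In WT 6 of 8 did as higher without Runx2+/- MS-275 replicate 3, against 22.2% of all genes. All 8 did in WT without the 3 libraries that stand apart, against 28.5%. In bulk RNA a gene's level can differ because cells of a type are more or fewer or because each holds more or less RNA, and these cannot be told apart here. The part of tissue makeup in the values of Hapln1, Snorc, Matn1, Acan and Col9a1 was not tested.

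**Figure D4:**
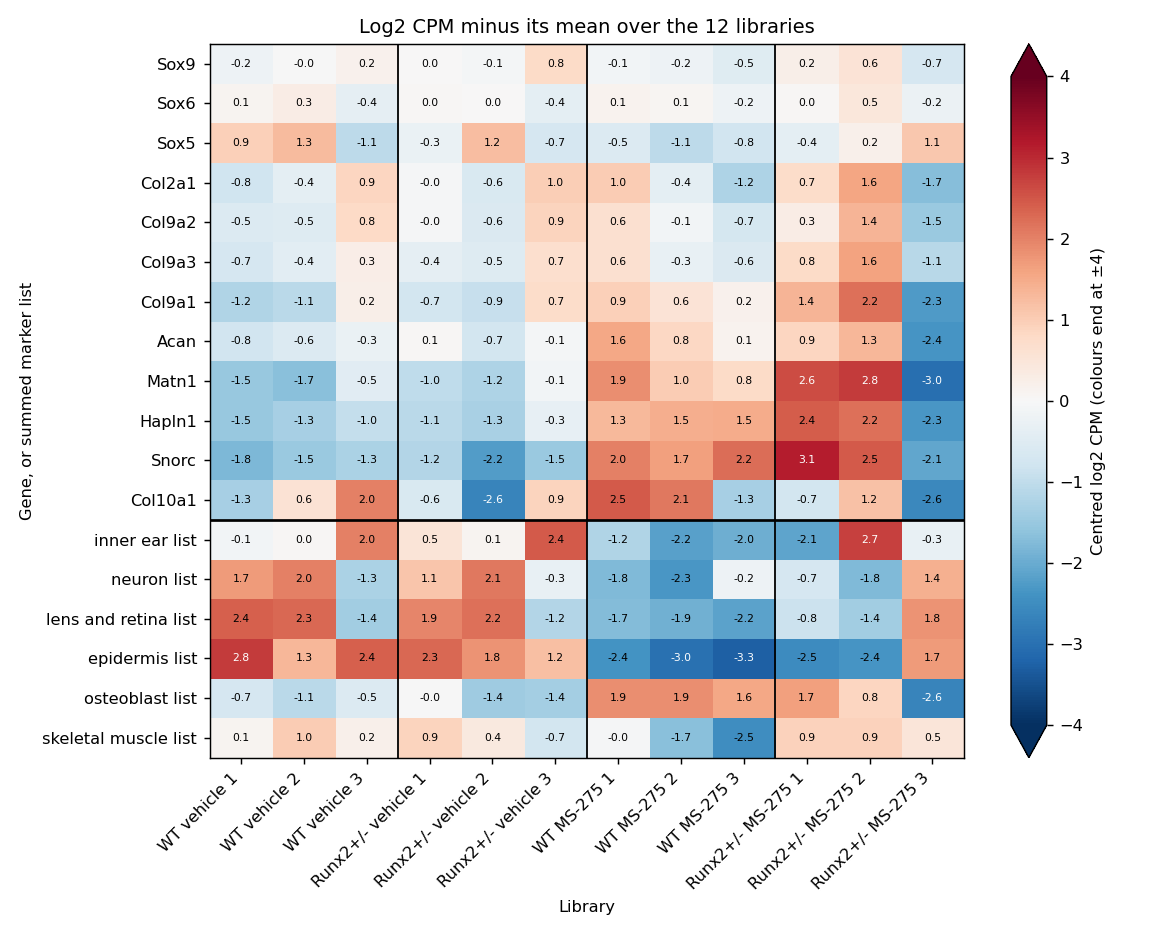
Log2 CPM of the 10 genes, Col9a2 and Col9a3 and the log2 of the summed CPM of 6 marker lists, each minus its mean over the 12 libraries (colour and printed value, log2 units), with libraries in columns and groups divided by vertical lines. Col2a1, Col9a2 and Col9a3 share their high and low libraries, and Snorc, Hapln1 and Matn1 are above 0 in 5 MS-275 libraries and below 0 in the other 7.

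The genotype comparison in vehicle asks how cartilage genes stand in Runx2+/- embryos without the drug. None of the 10 passed the test, and 0 of all 17967 genes did (55, or 0.306%, at an unadjusted p under 0.05; DESeq2 also gave 0). Each of the 10 overlapped between the genotypes, where 4.78% of all genes did not. The log2 fold changes of Runx2+/- over WT were 0.29 for Sox9 (SE 0.32), −0.35 for Sox5 (SE 0.63), −0.14 for Sox6 (SE 0.23), 0.20 for Col2a1 (SE 0.81) and 0.44 for Col9a1 (SE 0.84). They were 0.30 for Acan (SE 0.68), 0.41 for Matn1 (SE 0.95), 0.40 for Hapln1 (SE 0.78), −0.07 for Snorc (SE 0.90) and −1.15 for Col10a1 (SE 1.22), each with an edgeR adjusted p of 1.00. For Col10a1 the interval ran from −3.84 to 1.54.

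With MS-275 given, Runx2+/- and WT were likewise not told apart for any of the 10 by edgeR (0 of 17967 genes, 2832, or 15.8%, at an unadjusted p under 0.05; DESeq2 called 702 genes, or 4%, and none of the 10). Sox5 was the 1 gene whose groups did not overlap, higher in Runx2+/- (1.20, SE 0.64, edgeR adjusted p = 0.374), against 9.13% of all genes; its highest value came from replicate 3. Col10a1 stood at −1.78 (SE 1.24, interval −4.51 to 0.96, edgeR adjusted p = 0.480), and Snorc at 0.29 (SE 0.84). The test of whether the drug effect differs between genotypes (Runx2+/- minus WT) passed for 0 of the 10 and 0 of 17967 genes by edgeR (953, or 5.3%, at an unadjusted p under 0.05, and 38 genes, or 0.212%, by DESeq2, none of the 10). It was 1.55 for Sox5 (interval −0.43 to 3.52), −0.04 for Hapln1 (interval −2.48 to 2.40), 0.35 for Snorc (interval −2.37 to 3.08), 0.43 for Matn1 (interval −2.54 to 3.40) and −0.66 for Acan (interval −2.80 to 1.47), on the log2 scale.

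Beyond the 10 genes, other cartilage matrix genes lay mostly higher with the drug. Of 20 listed genes 19 were tested, 2 rose in WT and 0 fell (against 9.67% and 9.33% of all genes), 16 had a positive log2 fold change, and their median was 1.40 against −0.13 for all genes. Those without a positive value were Col9a2 (−0.01), Col27a1 (−0.01) and Otor (−2.11), and Col9a3 stood at 0.24. The part of bone and other tissues in the values of this list was not tested. Chad, which encodes the cell-binding protein chondroadherin, rose from 4.55 ± 1.33 to 12.0 ± 4.03 CPM (1.40, SE 0.39, edgeR adjusted p = 0.0440), and stood at 0.63 (edgeR adjusted p = 0.193) when libraries were scaled by size alone. Clec3a, a cartilage lectin named after its values were seen, was the other, with 0.239 to 0.593 CPM in WT vehicle and 4.34 to 6.58 CPM in WT MS-275 (log2 fold change 3.55, edgeR adjusted p = 0.0487). Without Runx2+/- MS-275 replicate 3, 12 of the 19 passed as higher in WT (against 22.2% of all genes) and 10 in Runx2+/- (against 18.5%), with 0 lower in both. Without the 3 libraries that stand apart 15 did in WT (against 28.5%) and 13 in Runx2+/- (against 23.9%), and without the 3 rich in ear transcripts 1 and 0 did.

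Regulators of chondrocytes went both ways in WT, with 3 of 23 tested higher and 5 lower (against 9.67% and 9.33% of all genes) and a median of 0.46. These counts were 7 and 7 without Runx2+/- MS-275 replicate 3 (against 22.2% and 24.4%). Fgfr3, the receptor that restrains growth of chondrocytes, rose (0.82, SE 0.20, edgeR adjusted p = 0.0434), although it stood at 0.0032 when libraries were scaled by size alone. Ctnnb1, which encodes beta-catenin (1.34, SE 0.38), and Sp7, a transcription factor of osteoblasts and late chondrocytes (2.00, SE 0.57), also rose, with edgeR adjusted p of 0.0440 and 0.0447. Under scaling by size alone neither passed (0.51 and 1.21, edgeR adjusted p = 0.0860 and 0.0563). Those that fell were Barx2 (−4.06), Zbtb20, a factor of enlarging chondrocytes (−2.12), Sox8, a close relative of Sox9 (−1.32), and Arid5b, a partner of SOX9 (−0.70), with edgeR adjusted p of 0.0434 to 0.0440, and Pitx1, named after its values were seen, whose change lay at −4.27 (edgeR adjusted p = 0.0497). Zbtb20 and Sox8 are also active in the nervous system. Zbtb20 was at 94.4, 145 and 40.5 CPM in the WT vehicle libraries, low in the same library as the neuronal markers, and the part of neuronal RNA in it was not tested. Barx2 and Pitx1 stood at 5.35 and 4.27 CPM in Runx2+/- MS-275 replicate 3, where the epidermal sum was 2180 CPM. In the other MS-275 libraries they reached at most 1.2 and 0.521 CPM, below every vehicle library. Within vehicle Pitx1 did not follow that sum throughout, with 3.26 CPM in WT vehicle replicate 3, where the sum was 3524 CPM. The part of epidermal RNA in the values of Barx2 and Pitx1 was not tested.

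Genes that make, fold and carry the matrix followed with 3 of 21 higher and 0 lower in WT (against 9.67% and 9.33% of all genes) and a median of 0.71. The counts were 12 and 1 without Runx2+/- MS-275 replicate 3 (against 22.2% and 24.4%). Serpinh1, a chaperone of collagen folding, rose (2.10, SE 0.66, edgeR adjusted p = 0.0490), and missed the threshold under scaling by size alone (1.30, edgeR adjusted p = 0.0514). Sec23a, a coat protein of the vesicles that export collagen, rose (2.02, SE 0.48, edgeR adjusted p = 0.0434), as did P4ha1, a collagen prolyl hydroxylase named after its values were seen (2.27, edgeR adjusted p = 0.0453). Gpc3, a glypican (1.32, SE 0.45, edgeR adjusted p = 0.0554), and Lox, which cross-links collagen (1.33, SE 0.53, edgeR adjusted p = 0.0775), did not pass. Serpinh1, Sec23a, P4ha1 and Lox serve type I collagen of bone as well. Of 13 joint and tendon genes, Tnmd, the tenocyte membrane protein tenomodulin (3.08, SE 0.79), and Mkx, a tendon transcription factor (1.46, SE 0.41), rose, and Cilp, of the intermediate cartilage layer (−2.49, SE 0.52), fell, with edgeR adjusted p of 0.0434 to 0.0441. These were 2 of 13 higher and 1 lower, against 9.67% and 9.33% of all genes. Mkx stood at 0.63 (edgeR adjusted p = 0.112) under scaling by size alone. With no filter on low counts no gene of any list passed in WT, since none of all genes did.

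In Runx2+/- none of these lists had a gene past the threshold in the fit of 12 libraries. Without Runx2+/- MS-275 replicate 3, where 18.5% of all genes were called higher and 14.2% lower, the calls were 3 higher and 3 lower of 23 regulators, 8 and 2 of 21 synthesis genes and 4 and 1 of 13 joint and tendon genes. Sec23a, Serpinh1, P4ha1, Ctnnb1, Tnmd and Mkx were among those higher, and Barx2 and Pitx1 among those lower.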

How the data were processed

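Total RNA of 12 calvaria libraries (TruSeq Stranded, NextSeq 500) was counted per gene. The authors deposited raw read counts per Ensembl mouse gene, 1 file per library; Trimmomatic, Bowtie2, SAMtools and HTSeq are listed per the submitters' processing notes, without versions. Those notes name a human build, GRCh38.p7, while the identifiers are mouse, and whether counting used strand is not stated. The 5 summary lines of each file, which name no gene, were left out (reads in no gene were 5.21% to 22.2% of uniquely aligned reads). Of 39179 identifiers, 37607 were paired with a symbol by GENCODE M21.

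Groups came from the labels. The 4 group means were fitted to all 12 libraries with edgeR 4.0.16 (TMM, filterByExpr, robust quasi-likelihood F tests, 8 residual degrees of freedom, two-sided, Benjamini-Hochberg over 17967 genes, threshold 0.05) in R 4.3.3, which was checked on simulated data. The genes and the gene lists were chosen with earlier results of these data known. Besides the 10 genes, those named are called genes of 4 cartilage lists (at most 12 by smallest p), the 5 of these lists with the highest CPM per kb, and the 6 genes nearest in profile to Col2a1 and to Sox9. Clec3a, P4ha1, Pitx1, Otor, Col27a1, Mmp13 and single marker genes of other tissues were named after their values were seen. Levels per kilobase used union exon lengths of GENCODE M21. Alternatives were DESeq2 1.42.0, its size factors within edgeR, no filter, scaling by library size, the replicate number as a block, leaving out each library, and, chosen after seeing the data, leaving out 2 sets of 3 libraries and the vehicle groups alone with the block. Among the fits that left out 1 library, that without Runx2+/- MS-275 replicate 3 was singled out after the data were seen. Same-numbered libraries deviated together between the vehicle groups (r = 0.22, 0.752 and 0.812 over genes) and not between drug and vehicle (r = −0.0416, −0.409 and −0.311 in WT, −0.25, −0.56 and −0.655 in Runx2+/-). The labels give the numbers only and state no pairing.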

Additional observations from a re-analysis of the deposited data

How the results depend on the processing

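Of 960 log2 fold changes of the 10 genes under an alternative, 838 kept their direction and side of the threshold, 73 changed direction, 24 newly passed and 25 no longer did; where the cause is not given by the smaller number of libraries, it was not tested. In WT, the drug called 3414 genes and 2 of the 10. These became 7223 genes with DESeq2, 7535 when scaled by library size only, 0 genes and 0 of the 10 with no filter, 0 genes and 0 of the 10 with the replicate block (edgeR adjusted p = 0.0943 for Hapln1 and 0.0887 for Snorc), 10887 genes and 6 of the 10 without the 3 libraries that stand apart, and 5215 genes and 1 of the 10 without the 3 rich in ear transcripts. In Runx2+/-, 0 became 1220 genes and 3 of the 10 with DESeq2, and 9543 genes and 5 of the 10 without the libraries that stand apart. Between genotypes under MS-275, 0 became 702 with DESeq2 and 1 without the libraries that stand apart, and the interaction became 38 with DESeq2. Leaving out 1 library at a time gave 0 to 8480 genes in WT (8480 without Runx2+/- MS-275 replicate 3, 5601 without WT vehicle replicate 3, 5578 without Runx2+/- MS-275 replicate 1, 2021 without Runx2+/- vehicle replicate 3, and 0 without any other) and 0 to 4 of the 10. It gave 0 to 5955 genes and 0 to 5 of the 10 in Runx2+/- (all without Runx2+/- MS-275 replicate 3), 0 to 23 genes between genotypes under MS-275 and 0 to 1 for the interaction.

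When only library size was used for scaling, the median of all genes went from −0.13 to −0.95 in WT and from −0.04 to −0.48 in Runx2+/-. This turned Col2a1 in WT to −0.65 and in Runx2+/- turned Col10a1 to −0.47, Col2a1 to −0.23, Sox5 to −0.23 and Sox6 to −0.32. With the replicate block Col2a1 in WT was −0.0206 and Sox6 0.00027, and with no filter Col2a1 was −0.0057. The block on the 6 vehicle libraries alone, where same-numbered libraries deviated together, called 0 genes (edgeR adjusted p of the 10 from 0.919 to 0.973). The labels do not state that these numbers pair the samples. The replicate block changed no other count of calls.

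Without the libraries that stand apart Sox5 in Runx2+/- was −0.79 and Sox9 0.37, Acan between genotypes under MS-275 0.10, the Hapln1 interaction 0.63 and Snorc between vehicle groups 0.0518. Without those rich in ear transcripts the drug value in Runx2+/- was −0.17 for Col10a1, −0.13 for Sox5 and −0.14 for Sox6. Between genotypes under MS-275 it was −0.21 for Col2a1, −0.21 for Col9a1, −0.0159 for Hapln1 and −0.14 for Sox6. The interaction was −0.51 for Col2a1, −0.55 for Col9a1, −0.23 for Matn1 and −0.0244 for Sox9, and Snorc between vehicle groups was 0.0523.

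Leaving out 1 library at a time gave ranges that crossed 0. For the drug in WT these were −0.82 to 0.69 for Col2a1 and −0.18 to 0.13 for Sox6. For the drug in Runx2+/- they were −1.26 to 1.27 for Col10a1, −0.28 to 0.97 for Col2a1, −0.41 to 0.89 for Sox5 and −0.46 to 0.10 for Sox9. Between vehicle groups they were −0.36 to 0.85 for Col2a1, −0.29 to 1.06 for Col9a1, −0.0268 to 0.90 for Matn1, −0.34 to 0.21 for Snorc, −1.15 to 0.0700 for Sox5, −0.31 to 0.0059 for Sox6 and −0.0336 to 0.45 for Sox9. Between genotypes under MS-275 they were −0.96 to 0.16 for Acan, −0.12 to 1.48 for Col2a1, −0.12 to 1.25 for Col9a1, −0.14 to 0.92 for Hapln1, −0.48 to 0.86 for Snorc and −0.11 to 0.25 for Sox6. For the interaction they were −2.06 to 0.49 for Col10a1, −0.32 to 1.29 for Col2a1, −0.56 to 0.95 for Col9a1, −0.54 to 0.52 for Hapln1, −0.0686 to 1.00 for Matn1, −0.41 to 0.92 for Snorc and −0.19 to 0.39 for Sox9. A single gene at 3 counts would read 0.12 to 0.279 CPM, so depth bears mainly on Snorc with vehicle, and the spread between libraries limits the other genes.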

Other observations

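Genes of cartilage matrix turnover, which include enzymes that take the matrix apart and Timp3, an inhibitor of such enzymes, gave a separate reading. Of 8 listed turnover genes 1 rose with MS-275 in WT and 0 fell (against 9.67% and 9.33% of all genes), with a median log2 fold change of 0.81 against −0.13 for all genes. The 1 was Mmp13, a collagenase of enlarged chondrocytes and osteoblasts, chosen after its values were seen. WT libraries held 61.4, 57.1 and 119 CPM of it with vehicle and 350, 745 and 577 CPM with MS-275 (log2 fold change 2.81, edgeR adjusted p = 0.0476). In Runx2+/- its libraries held 129, 13.1 and 47.4 CPM with vehicle and 113, 92.2 and 14.7 CPM with MS-275, and overlapped. The list had 0 calls in Runx2+/-. Without Runx2+/- MS-275 replicate 3, 3 of the 8 (Timp3, Adamts5 and Mmp13) passed as higher in WT (against 22.2% of all genes) and 0 in Runx2+/- (against 18.5%). Without the 3 libraries that stand apart, 6 of the 8 did in WT (against 28.5%) and 2 (Timp3 and Adamts5) in Runx2+/- (against 23.9%). Whether the drug effect on Mmp13 differs between genotypes did not pass the threshold (log2 difference −2.60, SE 1.16, edgeR adjusted p = 0.873).

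Link protein and aggrecan, which bind the same hyaluronan strand, did not keep 1 proportion. Within WT libraries there were 1.06 to 1.12 Hapln1 counts per Acan count with vehicle and 1.5, 2.77 and 4.57 with MS-275. Within Runx2+/- libraries there were 0.819, 1.22 and 1.51 with vehicle and 5.35, 3.32 and 1.85 with MS-275. The drug libraries lay above the vehicle libraries in both genotypes, replicate 3 of Runx2+/- MS-275 included, a comparison chosen after the values were seen and given without a test.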
